A study of Mus musculus with 6 samples.

Results

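Igf2bp1, Igf2bp2, Igf2bp3, Lin28b, Hmga1, Hmga2 and Gpc3 were followed through the fetal to neonatal period of mouse cardiomyocytes (CMs) as 7 genes taken by symbol from the 27998 genes listed, of which 18117 had at least 1 unique molecular identifier (UMI, a tag that counts 1 captured transcript) in CMs. The samples were CMs of C57BL/6J mouse left ventricles at embryonic day 16.5 (E16.5) and postnatal days 1 (P1) and 5 (P5), fixed in methanol, gated by FACS on the CM protein MYH1 and divided by Hoechst staining into cells of diploid (2n) and tetraploid (4n) DNA content. Each of the 6 conditions was 1 droplet-based scRNA-seq library made from cells of 3 pooled sorts. DNA content alone does not separate a 4n CM with 1 nucleus from one with several nuclei. The labels name no transgene, deletion or treatment. The genes were chosen by their CPM and shares of cells across the 6 libraries, with their fall across age already known, so these values are a description, and with 1 library per condition no difference was tested.

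The 3 IGF2BP proteins bind mRNAs such as that of Igf2 and stabilise them, transport them or control their translation, and they read the m6A mark on RNA. LIN28B blocks the maturation of the let-7 miRNAs, which in turn repress fetal mRNAs, among them those of the IGF2BPs, LIN28B and HMGA2. HMGA1 and HMGA2 are chromatin proteins that bind AT-rich DNA and are abundant in embryonic and proliferating cells. Glypican-3, the product of Gpc3, is a heparan sulfate proteoglycan of the cell surface that restrains Hedgehog signalling and growth before birth, and its loss causes an overgrowth syndrome.

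The let-7 sequences are shown because letters that pair with their seed recur in the 3′ UTRs of most of these genes. In RefSeq (GRCm38.p6), 8 mature let-7 5p names from 10 gene copies shared 1 seed, marked in capitals at bases 2 to 8. Of the 8, the following 4 cover differences at the first base and downstream of the seed.
let-7a-5p: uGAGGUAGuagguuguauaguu
let-7d-5p: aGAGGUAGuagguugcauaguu
let-7e-5p: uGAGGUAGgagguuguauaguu
let-7i-5p: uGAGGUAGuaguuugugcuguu
The longest annotated 3′ UTR of each gene (GENCODE vM21, GRCm38) was searched on the transcript strand for the 8-mer CTACCTCA, the 7-mers CTACCTC and TACCTCA, and the 6-mer TACCTC, each match being counted once under its longest form. Igf2bp1 held 3 8-mers and 2 7-mers in 6337 bases, Igf2bp2 1 8-mer and 1 7-mer in 1784 bases, and Igf2bp3 1 8-mer in 2119 bases. Lin28b held 1 8-mer and 4 7-mers in 4445 bases, Hmga2 1 8-mer and 6 7-mers in 3014 bases, and Hmga1 a single 7-mer in 1183 bases. The match of Hmga1 depends on the transcript, since 11 of its 17 basic transcripts hold no 7-mer or 8-mer. Gpc3 held none in 441 bases. Thus 6 of the 7 genes, Hmga1 by its longest UTR, held at least a 7-mer, against 14.3% of 21683 protein-coding genes. An 8-mer was held by 5, against 2.93% of protein-coding genes, or 3.45% of the 15952 of these with a UMI in CMs. The 6 genes with at least a 7-mer are all on the let-7 target list used below. A high share with matches was thus fixed beforehand, and nothing is read from it. The 8-mer shares were not matched for UTR length. Longer UTRs held more matches. Among genes with a UTR of a length close to that of Igf2bp1, 53.8% held at least a 7-mer, with 39.5% for Lin28b, 28.1% for Hmga2, 23.5% for Igf2bp3, 19.3% for Igf2bp2, 12.9% for Hmga1 and 6.25% for Gpc3. A match of letters is a description and was not measured as a site of repression, and let-7 itself was not measured by these libraries.

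The 8-mer matches are printed below with the upstream bases of the UTR, and with the only match of Hmga1. The same 8 or 7 letters (in capitals) recur beside upstream stretches that differ as a whole. Those of Igf2bp1, Igf2bp3 and Hmga1 share the letters aa directly before the match. The 3 sites of Igf2bp1 lie on chromosome 11, minus strand, at chr11:95961778-95961806, chr11:95959357-95959385 and chr11:95958763-95958791. Those of Igf2bp2, Igf2bp3, Lin28b and Hmga2 lie on minus strands at chr16:22059473-22059501, chr6:49086787-49086815, chr10:45381022-45381050 and chr10:120364224-120364252, and that of Hmga1 lies on the plus strand at chr17:27563271-27563299.
Igf2bp1 first: ggcagtgctgtgcgaagtaaaCTACCTCA
Igf2bp1 middle: gggaaccagcagtgctattaaCTACCTCA
Igf2bp1 last: ctacgagtataaatggatgaaCTACCTCA
Igf2bp2: agaaaaacacacaaataaaagCTACCTCA
Igf2bp3: taaacgtgcatttttactcaaCTACCTCA
Lin28b: cccttcacccgggcgggaagtCTACCTCA
Hmga2: gggggcgccgacattcaatttCTACCTCA
Hmga1: atcttctcctctgttcacaaaCTACCTCt

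**Figure D1:**
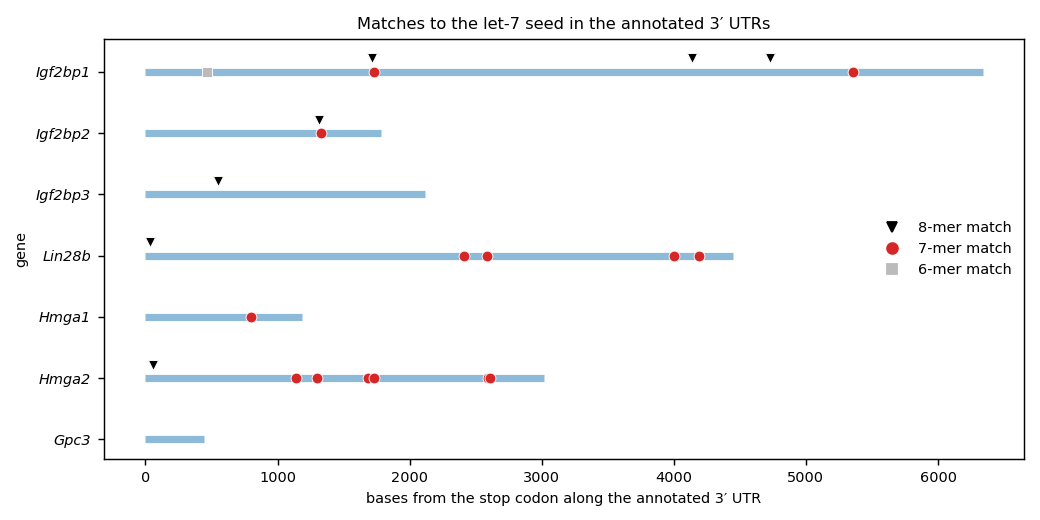
Matches to the let-7 seed in the longest annotated 3′ UTR of each gene, with the distance from the stop codon in bases on the horizontal axis and 1 bar per gene for its UTR. Triangles mark 8-mers, red circles 7-mers and the grey square a 6-mer; Hmga2 held 7 matches of 7 or 8 letters in 3014 bases, and Gpc3 held none in 441.

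A cell was taken as a CM when it held at least 1 UMI each of Tnni3, Tnnt2, Tnnc1 and Actc1, which kept 30733 of 31156 cells (98.6%). The CMs of a library held 13070343 to 19665830 UMIs, with a median of 1831 to 4658 UMIs per cell. All 10 CM markers examined were detected in every library, at a summed level of 33968 to 43344 UMIs per 1000000 UMIs (CPM). Values given 3 in a row follow the ages E16.5, P1 and P5. Cells with 3 or more markers of another cell type made up 2.00%, 2.37% and 5.37% of the diploid libraries and 18.6%, 30.1% and 11.9% of the tetraploid ones. These shares were counted at the full depth of each cell, which differed between libraries. The same cell barcode occurred in more than 1 library for 499 barcodes. Doublets were not called. Leaving out the 5% of cells with most UMIs was tried as a cut on depth only, which does not identify doublets. Levels of genes are their UMIs over all CMs of a library on the same CPM scale, with 95% intervals that cover counting error only and not the spread between animals.

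Igf2bp1 (chr11:95957163-96005940, minus strand) was at its highest at E16.5 and fell at each step. Diploid CMs held 194, 49 and 12 UMIs at the 3 ages (13.3, 2.98 and 0.669 CPM), and tetraploid CMs 200, 70 and 26 (15.3, 3.56 and 1.41 CPM). Both E16.5 libraries lay above both P1 libraries, and these above both P5 libraries. From E16.5 to P5 the log2 ratio was -4.31 in 2n CMs (95% interval -5.29 to -3.47), a 19.8-fold lower level, and -3.44 in 4n CMs (-4.09 to -2.84), a 10.8-fold lower level. The ploidies could not be told apart within counting error at E16.5 or P1, and at P5 4n stood above 2n by 1.08 on the log2 scale (0.04 to 2.20). Without cells with 3 or more markers of another cell type the last value was 0.69 (-0.48 to 1.93), an interval that holds 0.

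Igf2bp2 (chr16:22059009-22163299, minus strand) fell more slowly than Igf2bp1. Its level in diploid CMs was 18.9, 9.43 and 6.19 CPM (276, 155 and 111 UMIs), and in tetraploid CMs 21.8, 11.8 and 5.27 CPM (285, 232 and 97 UMIs). The log2 ratio from E16.5 to P5 was -1.61 in 2n CMs (-1.94 to -1.29) and -2.05 in 4n CMs (-2.40 to -1.71), 3.05-fold and 4.14-fold lower levels. The ages did not overlap, and the order of the ploidies turned at P5, where 2n stood above 4n with an interval of the log2 ratio (4n over 2n) of -0.64 to 0.17 that holds 0.

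Igf2bp3 (chr6:49085223-49214957, minus strand) had the most UMIs of the family, 1602 over the 6 libraries. Diploid CMs stood at 25.2, 12.5 and 6.69 CPM with age (369, 206 and 120 UMIs) and tetraploid CMs at 32.7, 15.1 and 9.89 CPM (428, 297 and 182 UMIs). In each age the 4n library was above the 2n library, and no interval between neighbours in the order of the 6 levels held 0. From E16.5 to P5 the log2 ratio was -1.91 in 2n CMs (-2.22 to -1.61) and -1.73 in 4n CMs (-1.99 to -1.47), or 3.77-fold and 3.31-fold lower. The 3 family members therefore fell by unequal sizes: the interval of Igf2bp1 lay wholly below those of Igf2bp2 and Igf2bp3 in both ploidies.

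Lin28b (chr10:45376620-45486395, minus strand) was close to the limit of these libraries, with 13, 13 and 6 UMIs in diploid CMs across the ages (0.889, 0.791 and 0.335 CPM) and 6, 23 and 11 in tetraploid CMs (0.459, 1.17 and 0.598 CPM). No order of the libraries could be read: each interval between neighbours in the order held 0. The log2 ratio from E16.5 to P5 was -1.41 in 2n CMs (-3.09 to 0.09) and 0.38 in 4n CMs (-1.18 to 2.10). Its paralog Lin28a had 1 UMI in the 6 libraries together. The ratio from E16.5 to P1 in 4n CMs, 1.35, had an interval of 0.01 to 2.94. Without cells with 3 or more markers of another type, the ratio from E16.5 to P5 in 2n CMs was -1.61 (-3.45 to -0.03), from 13 and 5 UMIs. In the same cells the ratio from E16.5 to P1 in 4n CMs was 1.85 (0.23 to 3.88), from 4 and 17 UMIs. The change over that step then differed between the ploidies by 2.02 (approximate interval 0.10 to 3.94). At these counts no fall or rise of Lin28b can be told firmly from counting error.

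Hmga1 (chr17:27556497-27563674, plus strand) changed least among the genes with enough UMIs to judge. The diploid libraries held 71, 57 and 37 UMIs (4.85, 3.47 and 2.06 CPM) and the tetraploid libraries 68, 71 and 61 (5.20, 3.61 and 3.32 CPM). P5-2n was the lowest library. From E16.5 to P5 the log2 ratio was -1.23 in 2n CMs (-1.85 to -0.64), a 2.35-fold lower level, and -0.65 in 4n CMs (-1.17 to -0.13), a 1.57-fold lower level. The 4n value stood at the 40.3 percentile of all genes tested in that comparison, close to their median of -0.51, and it became -0.12 under median-of-ratios scaling, which sets that median near 0. Under this scaling the 2n value no longer reached 2-fold. In the order of the 6 levels, only P5-4n over P5-2n had an interval without 0 (0.68, 0.07 to 1.31).

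Hmga2 (chr10:120361275-120476469, minus strand) was detected mainly at E16.5. It had 26, 3 and 1 UMIs in diploid CMs at the successive ages (1.78, 0.182 and 0.0558 CPM) and 58, 18 and 3 in tetraploid CMs (4.44, 0.915 and 0.163 CPM). Each E16.5 library was above every postnatal one. The log2 ratio from E16.5 to P5 was -4.99 in 2n CMs, with a counting interval of -10.35 to -2.39, and -4.77 in 4n CMs (-7.09 to -3.15). With 3 UMIs or fewer at P5 the size of the fall is known only within these wide bounds. Cells with 3 or more markers of another type held 15 of the 18 UMIs at P1-4n and all 3 at P5-4n. Of all UMIs these cells held 39.7% and 14.5% there. They also held 4 of the 26 at E16.5-2n (15.4%, against 4.18% of all UMIs). At E16.5-4n it was 24 of the 58 (41.4%, against 23.1%), so the share of Hmga2 was also above that of all UMIs before birth.

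Gpc3 (chrX:52272426-52613950, minus strand) fell most among the genes with at least 100 UMIs per comparison. UMIs of Gpc3 numbered 2139, 278 and 74 in diploid CMs (146, 16.9 and 4.13 CPM) and 2200, 537 and 88 in tetraploid CMs (168, 27.3 and 4.78 CPM). The ages did not overlap, and of the neighbours in the order only the 2 P5 libraries could not be told apart (log2 ratio of 4n over 2n 0.21, interval -0.25 to 0.68). From E16.5 to P5 the log2 ratio was -5.15 in 2n CMs (-5.50 to -4.81), a 35.4-fold lower level, and -5.14 in 4n CMs (-5.46 to -4.83), a 35.2-fold lower level. Ranked from the lowest ratio, Gpc3 stood at place 5 of 9505 genes in 2n CMs and place 9 of 9600 in 4n CMs.

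**Figure D2:**
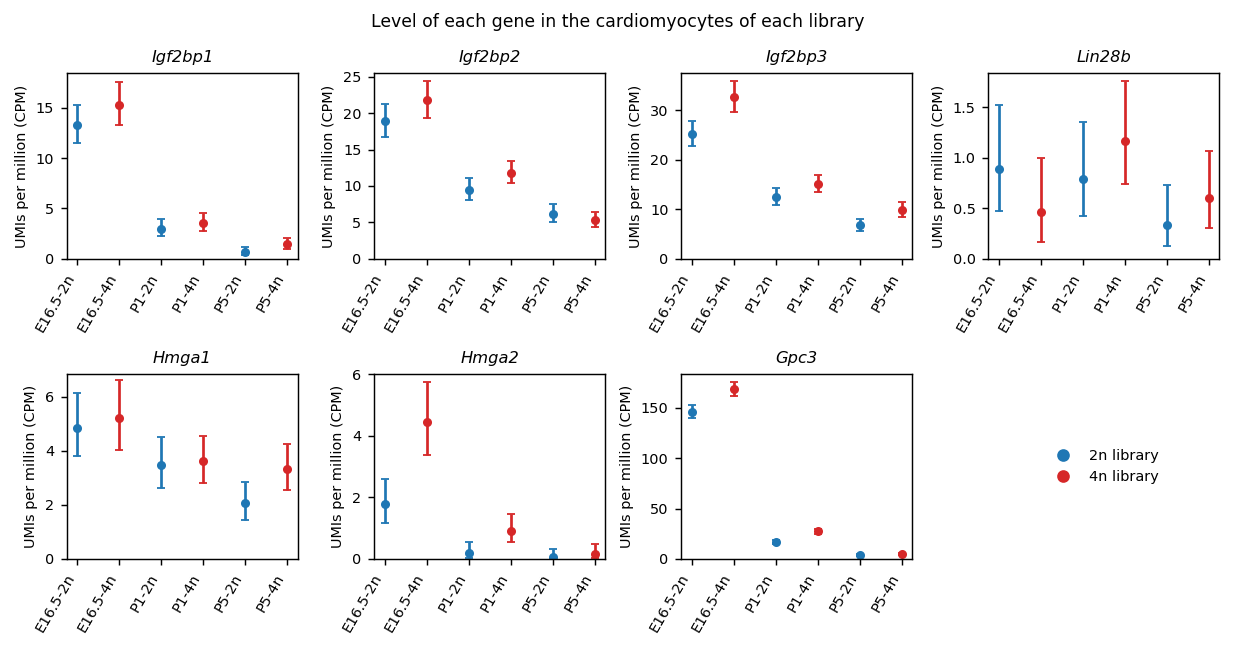
Level of each gene in the 6 libraries, in CPM on a linear axis from 0 that differs between panels, with 1 point per library (2n in blue, 4n in red) and bars for the exact 95% interval of the count. Gpc3 fell from 146 and 168 CPM at E16.5 to 4.13 and 4.78 CPM at P5, and the bars of Lin28b, from 6 to 23 UMIs per library, are wide.

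The steps of the fall differed between genes. From E16.5 to P1 Gpc3 fell 8.65-fold in 2n CMs and 6.16-fold in 4n CMs, and from P1 to P5 4.09-fold and 5.71-fold. The fall of Igf2bp3 was 2.01-fold and then 1.87-fold in 2n CMs, and 2.17-fold and then 1.53-fold in 4n CMs. That of Igf2bp2 was 2.00-fold and then 1.52-fold in 2n CMs, and 1.85-fold and then 2.24-fold in 4n CMs. Without cells with 3 or more markers of another type, the log2 ratios of Igf2bp2 in 4n CMs were -1.09 and then -0.77. The change of Gpc3 from E16.5 to P1 differed between the ploidies by 0.49 on the log2 scale (approximate Wald interval of counting error 0.26 to 0.72), the fall being smaller in 4n CMs, but by 0.11 (-0.17 to 0.38) without cells with 3 or more markers of another type. From P1 to P5 it differed by -0.48 (-0.97 to 0.01), and over both steps together by 0.01 (-0.45 to 0.46). Igf2bp2 differed from P1 to P5 by -0.56 (-1.05 to -0.07) in all CMs and by -0.10 (-0.66 to 0.46) without those cells. In all CMs the intervals of the other differences held 0.

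To place the genes among all others, a gene counted as lower when its level was at least 2-fold lower and it had at least 100 UMIs in the 2 libraries together. Lin28b and Hmga2 did not reach 100 UMIs in any of the 9 comparisons, and they are therefore left out of these counts. From E16.5 to P5, 5 of the 5 genes that reached 100 UMIs were lower in 2n CMs, where 16.8% of 9505 genes were lower and 3.03% at least 2-fold higher, and 4 of 5 in 4n CMs, where 21.0% of 9600 were lower and 2.48% higher. From E16.5 to P1, 4 of 5 were lower in 2n CMs (all genes 12.1% lower, 1.98% higher) and 3 of 5 in 4n CMs (11.6% and 2.88%). From P1 to P5 it was 1 of 3 in 2n CMs (1.98% and 3.02%), Gpc3, and 2 of 4 in 4n CMs (5.85% and 2.40%), Igf2bp2 and Gpc3. None of the genes that reached 100 UMIs was at least 2-fold higher in these comparisons. Since the genes were chosen for their fall with age, nothing is read from these shares. The median log2 ratio of all genes from E16.5 to P5 was -0.45 in 2n and -0.51 in 4n CMs. CPM is relative to the sum of all genes, and without the 50 most abundant genes in that sum the medians were -0.17 and -0.22. Under median-of-ratios scaling the shares of all genes that were lower and higher moved to 5.57% and 7.08% in 2n CMs and to 6.72% and 7.41% in 4n CMs.

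**Figure D3:**
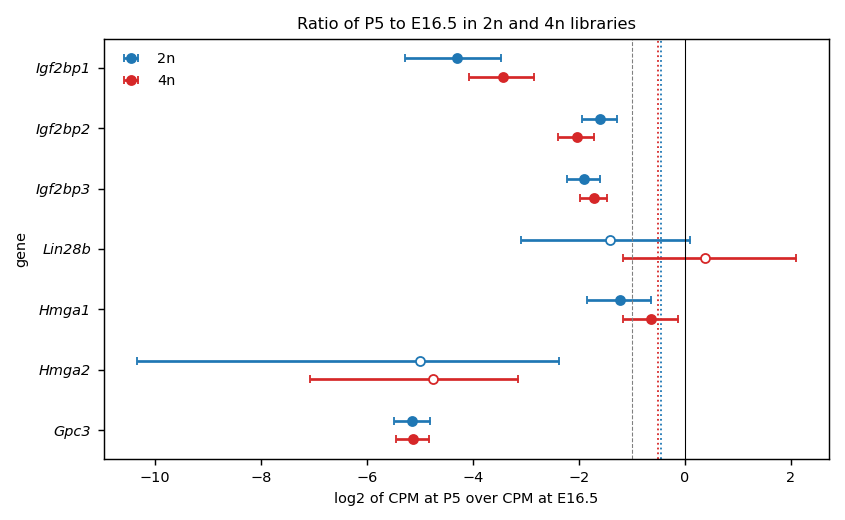
Log2 ratio of the level at P5 over that at E16.5 on the horizontal axis, with 1 row per gene, blue points for 2n and red points for 4n CMs and bars for the exact 95% interval of counting error; filled points had at least 100 UMIs in both libraries together. The dotted lines give the median of all genes (2n in blue, 4n in red) and the dashed grey line a 2-fold lower level; the points of Gpc3 lie at -5.15 and -5.14, and the wide bars of Hmga2 span theirs.

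Between the ploidies of 1 age, none of the genes that reached 100 UMIs was at least 2-fold apart (0 of 5 at E16.5, 0 of 5 at P1 and 0 of 3 at P5). Of all genes, 4.64%, 5.23% and 1.87% were at least 2-fold higher in 4n CMs at these ages and 0.0208%, 0% and 0.406% lower. Igf2bp3 was higher in 4n CMs by 0.38 on the log2 scale at E16.5 (0.17 to 0.58), 0.27 at P1 and 0.56 at P5 (0.22 to 0.91). Gpc3 was higher by 0.20 at E16.5 (0.12 to 0.29) and 0.69 at P1 (0.48 to 0.91), a 1.61-fold difference, whereas at P5 the interval of its 0.21 held 0. Hmga2, below 100 UMIs, had log2 ratios of 1.32 at E16.5 (0.63 to 2.05) and 2.33 at P1 (0.55 to 4.73). Cells with 3 or more cycling markers made up 56.7%, 12.5% and 42.0% of the tetraploid and 20.7%, 2.79% and 13.3% of the diploid libraries. These shares were counted before thinning, at median depths from 1831 UMIs per cell (P1-2n) to 4658 (P5-4n), and so depend on depth as well. Tetraploid libraries also held more cells with markers of other cell types, so that ploidy, cycling and these cells cannot be told apart in these ratios.

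A UMI of Gpc3 was found in 27.6%, 3.58% and 1.59% of diploid and 33.0%, 9.56% and 2.24% of tetraploid CMs, whose median depths were 2240, 1831 and 3759 and 2185, 3187 and 4658 UMIs per cell. Since depth differed, each cell with at least 1000 UMIs was thinned to 1000 UMIs. Cells with fewer were left out, 163, 700 and 20 in diploid and 23, 0 and 0 in tetraploid libraries. The shares were then 13.1% (12.2% to 14.0%), 1.72% and 0.433% of the remaining diploid and 16.1% (15.1% to 17.2%), 3.12% and 0.438% of the remaining tetraploid CMs. With UMIs spread evenly over the thinned cells, 13.5%, 1.75% and 0.477% and 16.4%, 3.15% and 0.464% would hold 1 or more. At E16.5 the UMIs of Gpc3 were therefore found in about as many cells as an even spread gives, and at most 8 UMIs were found in 1 cell. Shares near these values do not by themselves show an even spread. At the lower levels after birth nearly any spread gives like shares. Igf2bp3 was found in 2.84% and 3.31% of thinned cells at E16.5 and 0.728% and 0.821% at P5, against 2.81%, 3.30%, 0.726% and 0.818% under an even spread. At these low levels, too, nearly any spread gives like shares, so nothing is read from this match. Igf2, an mRNA bound by the IGF2BPs, was found in 33.6% of E16.5-4n and 22.6% of P1-4n cells against 37.1% and 26.8% under an even spread. In these 2 libraries, cells with 3 or more markers of another type held 36.3% and 58.0% of its UMIs, against 23.1% and 39.7% of all UMIs. The part of these cells in the spread of Igf2 was not tested. A class of cells that should lack these genes could not be set apart: cells with 3 or more erythroid markers numbered 10 over 4 libraries and held 4 UMIs of Gpc3. Free RNA in the droplets thus has no measured background share here.

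Gpc3 is also expressed by non-myocyte cells of the heart, and the 8 fibroblast markers were all detected in every library, at a summed 133, 142 and 263 CPM in the diploid and 796, 947 and 360 CPM in the tetraploid libraries. The endothelial markers summed to 112, 262 and 458 CPM and to 275, 748 and 479 CPM. In cells with 3 or more fibroblast markers Gpc3 stood at 148, 46.5 and 19.1 CPM in diploid and 219, 47.6 and 21.2 CPM in tetraploid libraries. In cells with 0 markers of every other type it stood at 144, 13.6 and 2.18 CPM and at 160, 18.9 and 1.51 CPM. Intervals of the 2 classes overlapped at E16.5-2n and were apart in the other libraries, with the fibroblast-marker cells higher. Cells with 3 or more markers of another type held 3.74%, 8.63% and 32.4% of the Gpc3 UMIs in diploid libraries, against 4.18%, 4.07% and 8.11% of all UMIs, and 26.6%, 58.1% and 48.9% in tetraploid libraries, against 23.1%, 39.7% and 14.5%. Of the Igf2bp2 UMIs these cells held 7.61%, 6.45% and 14.4% in diploid and 34.7%, 55.6% and 17.5% in tetraploid libraries. The shares of Igf2bp1 were 6.70%, 2.04% and 8.33%, and 32.0%, 47.1% and 34.6%. Igf2bp2 was higher in these cells, with an interval without 0, except at P1-2n and P5-4n. Igf2bp1 was so at E16.5-4n and P5-4n, and Igf2bp3 in no library.

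The fall of Gpc3 was as large without those cells. From E16.5 to P5 its log2 ratio was -5.60 in 2n and -5.81 in 4n CMs with fewer than 3 markers of every other type, and -6.04 (-7.26 to -5.06) and -6.72 (-8.60 to -5.36) in cells with 0 such markers, from 1222 UMIs at E16.5-2n to 8 at P5-2n and from 794 at E16.5-4n to 4 at P5-4n. Within fibroblast-marker cells it was -2.96 and -3.37. The difference of 4n over 2n at P1 was 0.24 without the cells with markers of another type (interval -0.03 to 0.50), below the 0.69 of all CMs and no longer outside counting error. Of the other genes, Igf2bp2 at P1 had a 4n over 2n log2 ratio of 0.32 in all CMs and -0.08 without these cells (-0.46 to 0.29), and Igf2bp3 had ratios of 0.35 (0.13 to 0.57) at E16.5, 0.22 (-0.08 to 0.53) at P1 and 0.63 (0.27 to 0.99) at P5, the one at P1 no longer outside counting error. Hmga2 had 1.11 (0.29 to 1.95) at E16.5. At P1 its ratio was 1.00 (-2.13 to 4.58), from 2 and 3 UMIs, and was no longer outside counting error.

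**Figure D4:**
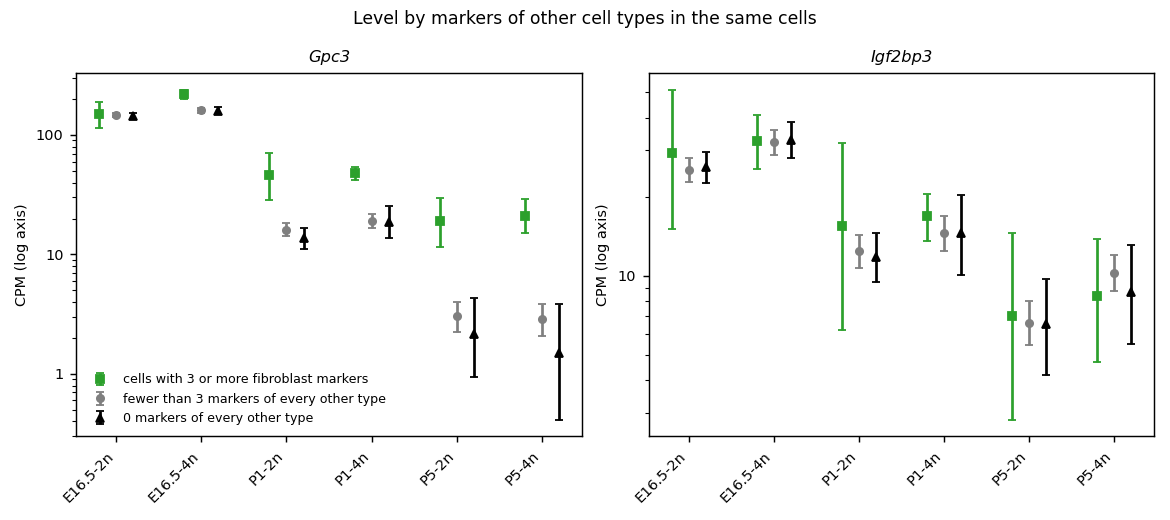
Level of Gpc3 and Igf2bp3 in CPM (log axis) in the 6 libraries, with green squares for cells with 3 or more fibroblast markers, grey circles for cells with fewer than 3 markers of every other type and black triangles for cells with 0, and bars for the exact 95% interval of the count. Gpc3 is similar in all 3 classes at E16.5-2n (148, 147 and 144 CPM) and separates by class after birth, whereas Igf2bp3 overlaps across classes in every library.

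In cycling cells (3 or more of 24 markers, such as the proliferation antigen Mki67 and the topoisomerase Top2a) the thinned share with a UMI was compared with that in cells with 0 of these markers. Igf2bp3 was found in 4.14% (3.35% to 5.04%) of cycling and 2.33% (1.62% to 3.25%) of other E16.5-4n cells, and in 1.39% (0.760% to 2.31%) and 0.368% (0.148% to 0.756%) of P5-4n cells, intervals that do not overlap. At E16.5-2n it was found in 2.68% and 2.63%. Gpc3 was found in 15.7% and 16.9% of E16.5-4n cells and 12.0% and 13.1% of E16.5-2n cells, and at P1-2n in 6 of 94 cycling cells (6.38%) and 99 of 6017 others (1.65%). Hmga2 at E16.5-2n was found in 6 of 634 cycling cells and 4 of 3492 others. At E16.5-4n it was found in 0.489% (0.245% to 0.874%) of cycling and 0.275% (0.0749% to 0.701%) of other cells. These intervals overlap, and so did those of Hmga2 in the postnatal libraries. In the other pairs of Igf2bp2, Igf2bp3 and Gpc3 the intervals overlapped, and Igf2bp3 without cycling cells had 4n over 2n log2 ratios of -0.01 at E16.5 in place of 0.38 and 0.10 at P5 in place of 0.56. The 24 markers themselves were all at least 2-fold lower from E16.5 to P1, against 12.1% of all genes in 2n and 11.6% in 4n CMs. From P1 to P5, 20 of the 22 that reached 100 UMIs were at least 2-fold higher in 2n CMs (3.02% of all genes). In 4n CMs 24 of 24 were higher (2.40% of all genes). Gpc3 and the IGF2BPs did not show this rise at P5.

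**Figure D5:**
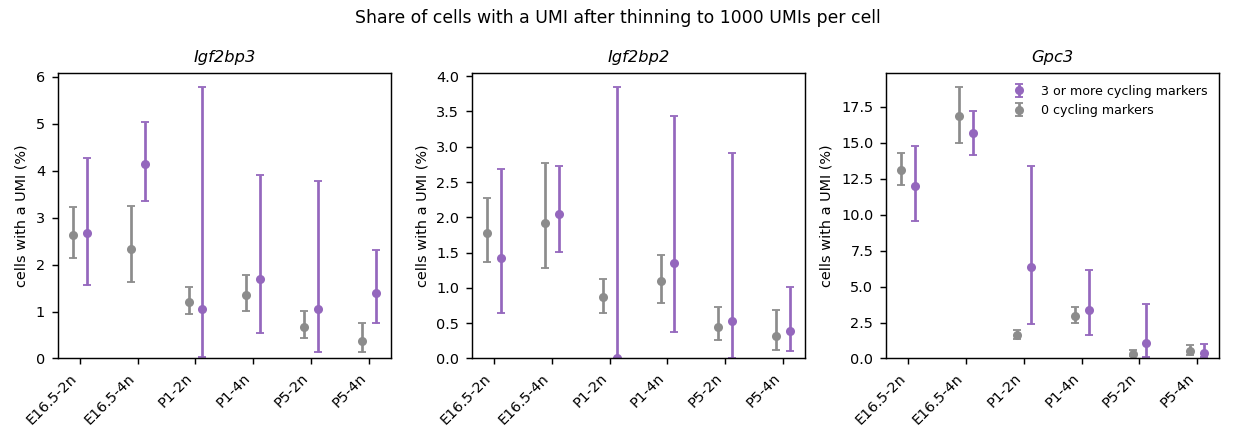
Share of cells with a UMI, in percent after thinning to 1000 UMIs per cell, for Igf2bp3, Igf2bp2 and Gpc3 in the 6 libraries, with purple points for cells with 3 or more cycling markers, grey points for cells with 0, and bars for the exact 95% binomial interval. The bars of Igf2bp3 are apart at E16.5-4n (4.14% and 2.33%) and at P5-4n (1.39% and 0.368%).

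At least 1 of the 7 genes was found in 18.5%, 4.47% and 1.87% of thinned diploid and 22.3%, 6.34% and 2.13% of thinned tetraploid cells. Without Gpc3, at least 1 of the other 6 was found in 6.23%, 2.77% and 1.48% and in 7.47%, 3.29% and 1.70%. Among E16.5-2n cells with a UMI of Gpc3, 5.94% (43 of 724) had a UMI of another of the genes, and among those without it 6.28%. The corresponding values at E16.5-4n were 8.17% (64 of 783) and 7.34%, so that the cells with Gpc3 were not set apart by the other genes at this depth.

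The genes closest to each member in their levels over the 6 libraries were sought among 9627 genes with at least 300 UMIs, by the root mean square difference of centred log2 CPM, which is a description over 6 libraries. Gpc3 lay nearest to Cdkn1c (0.311), an inhibitor of cyclin-dependent kinases, which stood at 103, 11.4 and 4.30 CPM in diploid and 175, 28.3 and 5.71 CPM in tetraploid libraries, then to Igfbp2 (0.338), an IGF-binding protein, and Myh7 (0.494), the fetal myosin heavy chain. Igf2bp1 lay nearest to Hist3h2ba (0.237), Mest (0.252) and Maff (0.254), Igf2bp2 to Ptch1 (0.072), Arhgap31 (0.085) and Socs3 (0.096), and Igf2bp3 to Phf13 (0.092), Ccnl1 (0.109) and Ddx41 (0.112). Hmga1 lay nearest to Zfp954 (0.075), Gmeb1 (0.090) and Rnf6 (0.097). Among the members, Igf2bp2 and Igf2bp3 were closest to each other (0.241), and Hmga1 and Gpc3 were far apart (1.733).

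Of the let-7 target list without the 7 genes, 5 of 18 genes that reached 100 UMIs were at least 2-fold lower and 1 higher from E16.5 to P5 in 2n CMs (median log2 ratio -0.60 against -0.45 of all genes), and 6 of 17 were lower in 4n CMs (-0.91 against -0.51). Of all genes, 16.8% were lower in 2n and 21.0% in 4n CMs. Mycn, a growth-promoting transcription factor, had log2 ratios of -2.83 in 2n and -2.79 in 4n CMs, from 31.4 to 4.41 CPM and from 29.6 to 4.29 CPM. Of the genes that process or guide miRNAs, 1 of 14 and 2 of 14 were lower, with medians of -0.25 and -0.54, among them the helicase Ddx5 (-1.24 and -1.25). Genes with 0, 1 or at least 2 let-7 matches of 7 or 8 letters in their UTR had median log2 ratios of -0.46, -0.41 and -0.38 in diploid and -0.51, -0.51 and -0.49 in tetraploid CMs, and 16.8%, 17.0% and 16.4% against 20.9%, 21.4% and 23.7% of them were lower. Over the separate steps in 4n CMs the medians were -0.30, -0.31 and -0.31 from E16.5 to P1 and -0.15, -0.17 and -0.19 from P1 to P5, so that genes with matches stood slightly above the others in some comparisons and slightly below in others. This comparison was chosen after the counts had been seen. Median-of-ratios scaling adds 0.45 in 2n and 0.53 in 4n CMs to each ratio from E16.5 to P5, which turns the medians of the miRNA list and of the m6A list above 0 in 2n CMs and leaves those of the other lists described here below 0.

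Of the IGF2BP complex and bound RNA list, 4 of 14 genes were lower in 2n CMs (16.8% of all genes) and 4 of 13 in 4n CMs (21.0% of all genes), with medians of -0.79 and -0.78. H19, a long noncoding RNA, had log2 ratios of -3.85 in 2n and -4.39 in 4n CMs (647 to 44.7 and 1046 to 49.8 CPM), and Igf2, the growth factor mRNA from which the family is named, of -1.89 and -2.20 (341 to 91.9 and 464 to 101 CPM). Of 12 genes of the m6A machinery found, 1 of 12 was lower in 2n CMs and 5 of 12 in 4n CMs (medians -0.35 and -0.69, against the same 16.8% and 21.0%), the methyltransferase Mettl3 having log2 ratios of -1.95 and -1.41. Of 10 high mobility group genes other than Hmga1 and Hmga2, 6 of 9 were lower in 2n CMs and 4 of 9 in 4n CMs (medians -1.08 and -0.94). The chromatin protein Hmgb2 in 2n CMs stood at 539 CPM at E16.5, 133 at P1 and 214 at P5.

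Of 25 genes of heparan sulfate proteoglycans and Gpc3 signalling, 5 of 16 were lower in 2n CMs (16.8% of all genes) and 7 of 17 in 4n CMs (21.0% of all genes) from E16.5 to P5, with medians of -0.62 and -0.88. Igf2r, the receptor that removes IGF2, had log2 ratios of -1.87 and -2.27 (310 to 84.6 and 428 to 88.8 CPM), and the Hedgehog receptor Ptch1 of -1.63 in 2n CMs (19.2 to 6.19 CPM). The syndecan Sdc1 fell from 12.4 to 3.65 CPM from E16.5 to P1 and stood at 10.3 CPM at P5 in 2n CMs, whereas in 4n CMs it stood at 9.97 CPM at P1 and 8.04 CPM at P5, with no such return. The glypican Gpc6 was higher in 4n than 2n CMs by 1.86 at E16.5 (2.05 and 7.42 CPM) and by 3.53 at P1 (1.16 and 13.3 CPM) on the log2 scale. The summed fibroblast markers were also higher in 4n CMs, at 796 against 133 CPM at E16.5 and 947 against 142 CPM at P1, and their part in the values of Gpc6 was not tested. Of the anchor genes of CM maturation, Myh7 had log2 ratios of -4.36 and -4.33 and the atrial and fetal light chain Myl4 of -4.80 and -5.20, while the adult myosin Myh6 had 2.83 and 3.31.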

How the data were processed

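Droplet-based scRNA-seq libraries (Chromium Single Cell 3′ v2) were counted by the authors with Cell Ranger and STAR (versions not given in the sources used here) on GRCm38, and the deposited values are raw UMI counts per gene and cell, without normalization. Tables of the authors' own comparison and of background genes were not used. Here UMIs were summed over CMs by library and divided by all CM UMIs (CPM). Ratios carry the exact interval of the binomial split and shares the Clopper-Pearson interval, at the 95% level. A floor of 3 UMIs was noted for each library but replaced no count in the levels and ratios given here, and a count of 0 gave no ratio. How the counting split reads shared by near-identical sequences is uncertain. With 1 library per condition no p-value was computed. The 7 genes and the gene lists were chosen with earlier results of these data known. Named genes were the 7 genes, at most 4 genes a list and direction by size of ratio, and the 3 nearest in profile. One library's age is given as 16.6 and as 16.5 in different labels, and 16.5 was used. Python 3.11.15, numpy 2.4.6, scipy 1.17.1, pandas 2.3.3 and matplotlib 3.10.9 were used. Alternatives were other scalings, thresholds, cell definitions and thinning. Ratios and intervals were tested on counts simulated with changes well above 2-fold and with counting error only. That test does not bear on calls near 2-fold or on the spread between cells or animals.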

Additional observations from a re-analysis of the deposited data

Results flagged for a closer look

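The log2 ratio of 4n over 2n for Igf2bp2 was 0.208 at E16.5, 0.324 at P1 and -0.232 at P5, that is, of opposite direction at the last age. That of Lin28b was -0.953 at E16.5, 0.565 at P1 and 0.837 at P5. The change of Lin28b with age also went opposite ways in the 2 ploidies, from E16.5 to P1 at -0.169 in 2n and 1.349 in 4n CMs, and from E16.5 to P5 at -1.409 and 0.381. These differences between groups were not tested by a replicate, and Lin28b had 6 to 23 UMIs per library. The 423 cells without all 4 CM markers, which entered no comparison, held 77 UMIs of Gpc3 (150 CPM, interval 118 to 187), 17 of Igf2bp2, 16 of Igf2bp3 and 5 of Igf2bp1.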

How the results depend on the processing

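No paired analysis was possible because each condition is 1 library, and for the same reason no library could be left out. Of the counts of genes at least 2-fold lower or apart, 105 values under alternatives stayed within 1.5 times and 12 moved. Of the log2 ratios of the genes 622 moved by less than counting error, 49 by more, and 2 with a main interval without 0 turned direction. Further ratios whose main intervals held 0 also changed sign. Without cells with 3 markers of another type, 4n over 2n of Gpc3 at P5 went from 0.21 to -0.09 and that of Hmga1 at E16.5 from 0.10 to -0.03. From E16.5-2n to P1-2n the count went from 4 to 2 under median-of-ratios scaling and to 2 without the 50 most abundant genes, Igf2bp1 and Gpc3 being left. From P1-2n to P5-2n it went from 1 to 2 without cells with 3 cycling markers, to 3 at 1.5-fold and to 4 with no UMI minimum. From P1-4n to P5-4n it went from 2 to 1 under median-of-ratios scaling, to 1 without cells with 3 markers of another type and to 4 with no minimum. Between ploidies it went from 0 to 1 with no minimum at E16.5 and P1, to 1 at 1.5-fold at P1 (Gpc3) and to 2 with no minimum at P5. The log2 ratio of Igf2bp2 from P1-2n to P1-4n turned to -0.081 without cells with 3 markers of another type, and that of Igf2bp3 from E16.5-2n to E16.5-4n to -0.014 without cells with 3 cycling markers. The cause was not tested. Gpc3 from E16.5 to P5 lay between -5.60 and -4.70 in 2n and -5.81 and -4.61 in 4n CMs under the alternative scalings, cell filters and thinnings, and it was also negative in the classes of cells with 0 markers of another type (-6.04 and -6.72) and with 3 or more fibroblast markers (-2.96 and -3.37). Median-of-ratios scaling shifted all ratios by 0.45 and 0.53 from E16.5 to P5, by 0.34 and 0.33 from E16.5 to P1 and by 0.11 and 0.20 from P1 to P5. The shares of all genes lower and higher then became 6.13% and 3.96% against 12.1% and 1.98% (E16.5-2n to P1-2n), 6.37% and 5.35% against 11.6% and 2.88% (E16.5-4n to P1-4n), 1.43% and 3.61% against 1.98% and 3.02% (P1-2n to P5-2n), and 3.80% and 3.33% against 5.85% and 2.40% (P1-4n to P5-4n). Intervals cover counting error only, and the spread between animals is unknown.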
